A study of Mus musculus with 7 samples.

Results

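The 40 cell cycle genes described here are a fixed list of mouse genes that are transcribed when cells divide, and all 40 had a row in each of the 3 deposited count tables, out of 33864 genes listed in any of them. They were matched by gene symbol. The 22 mitotic genes are Ccna2, Ccnb1, Ccnb2, Cdk1, Aurka, Aurkb, Plk1, Bub1 and Bub1b (cyclins and mitotic kinases), Cdc20 and Ube2c (ubiquitination of anaphase substrates), and Mki67, Top2a, Birc5, Tpx2, Cenpa, Cenpe, Cenpf, Nusap1, Kif11, Kif20a and Kif23 (spindle, kinetochore and chromosome proteins). The 18 replication genes are Mcm2, Mcm3, Mcm4, Mcm5, Mcm6, Mcm7, Cdc6, Gins2, Pcna and Hells (origin licensing, replication fork and chromatin), Rrm1, Rrm2, Tyms and Tk1 (nucleotide synthesis), Ccne1, Ccne2 and E2f1 (regulators of S phase entry) and Stmn1 (a tubulin-binding protein that cells outside the cycle also express).

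The genes were followed in single pancreatic cells of 7 C57BL/6 mice aged 2 months, each of which gave 1 library. Doxycycline was given in the drinking water at 1 mg/ml for 7 days to 2 wild-type (WT) mice and to 3 mice of the genotype i4F-B. The latter are heterozygous for a ubiquitous doxycycline-inducible cassette of the reprogramming factors Oct4, Sox2, Klf4 and c-Myc in the Pparg locus and for the rtTA transactivator in Rosa26. The third group held 2 WT mice given caerulein, a cholecystokinin analogue that causes mild pancreatitis, at 100 µg/kg in 7 injections a day on 2 days. Doxycycline is not among the treatments that the labels give for caerulein mice, so that these differ from the WT group in both agents. By the paper's methods, caerulein mice were killed less than 7 days after their first injection. If this holds for the mice used here, the time since first treatment differs from that of the doxycycline groups as well. The tables held 4327 and 6326 WT cells, 9811, 8218 and 7614 i4F cells, and 15138 and 7039 caerulein cells, 58473 in all. The libraries held 15469018 to 64784216 unique molecular identifiers (UMIs, 1 per captured transcript), with a median of 1248.5 to 4247 per cell, lowest in i4F 3. Library names start with AL for WT 1 and the i4F mice, and with AM for WT 2 and the caerulein mice. A difference between i4F and caerulein mice therefore cannot be told apart from one between these name series, whereas each treatment has 1 WT mouse in its own series.

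Dividing cells transcribe these genes in waves. Around the entry into S phase, E2F transcription factors release genes for the Mcm helicase, the sliding clamp Pcna and the enzymes that make deoxynucleotides. Later, the MuvB complex with B-Myb and Foxm1 activates genes for cyclin B, Cdk1, the Aurora and Polo-like kinases and the proteins of the spindle. Several of the proteins, among them cyclin B, are degraded as cells leave mitosis. Most cells of the adult pancreas are out of the cycle, and injury or the enforced expression of reprogramming factors can bring several of its cell types back into it.

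The sequences before the start sites of 6 of the genes are shown because mitotic and replication genes, which are counted separately below, differ there in known promoter elements. RefSeq windows of 300 bases, from 250 before to 50 after a start (GRCm38.p6), were at hand for 18 of the 22 mitotic and 14 of the 18 replication genes. Without one were Ccna2, Aurkb, Tpx2, Kif20a, Mcm4, Ccne2, Gins2 and Stmn1. The 100 bases before the start are printed 5′ to 3′ on the strand of the gene, at chr13:100786487-100786586 (minus strand) for Ccnb1, chr10:69352913-69353012 (minus) for Cdk1, chr11:99024190-99024289 (minus) for Top2a, chr7:135716380-135716479 (minus) for Mki67, chr8:75109409-75109508 (plus) for Mcm5 and chr2:132253181-132253280 (minus) for Pcna. Capitals mark TTTGAA (the CHR element), CCAAT (the CCAAT box) and GCGGGAA (a core of the E2F site), searched on both strands, so that ATTGG and TTCAAA are matches on the other strand. GCGGGAA is in none of the stretches printed. TTTGAA is in none of those of Ccnb1, Mcm5 and Pcna, and the whole Ccnb1 window lacks it too. Of the letter strings searched, the stretches of Ccnb1, a mitotic gene, and Mcm5, a replication gene, both hold only CCAAT, at 2 places. Other forms of these elements were not searched, so that a stretch without a match may still hold one.
Ccnb1: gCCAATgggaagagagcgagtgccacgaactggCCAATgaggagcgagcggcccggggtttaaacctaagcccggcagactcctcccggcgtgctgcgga
Cdk1: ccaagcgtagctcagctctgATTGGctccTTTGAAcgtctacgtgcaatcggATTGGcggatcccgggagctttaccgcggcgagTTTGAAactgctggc
Top2a: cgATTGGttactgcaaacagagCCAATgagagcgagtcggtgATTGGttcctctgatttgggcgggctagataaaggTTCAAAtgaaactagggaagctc
Mki67: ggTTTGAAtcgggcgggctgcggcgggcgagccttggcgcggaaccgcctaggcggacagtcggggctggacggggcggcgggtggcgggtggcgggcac
Mcm5: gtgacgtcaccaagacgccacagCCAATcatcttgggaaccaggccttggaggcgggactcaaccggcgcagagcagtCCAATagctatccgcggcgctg
Pcna: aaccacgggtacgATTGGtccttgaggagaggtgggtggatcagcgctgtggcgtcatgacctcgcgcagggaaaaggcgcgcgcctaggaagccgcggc

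Over the whole windows, TTTGAA was in 13 of 18 windows of mitotic genes (72.2%) and in 1 of 15 windows of replication genes (6.67%, Mcm7 having 2 windows), against 17.9% of all 32851 windows. GCGGGAA was in none of the 18 mitotic windows, in 6 of the 15 replication windows (40.0%) and in 4.60% of all windows. CCAAT was in 16 mitotic windows (88.9%), in 9 replication windows (60%) and in 37.4% of all windows. All 13 mitotic windows with TTTGAA also held CCAAT, a pair present in 6.95% of all windows. These are matches of letters in a window and not mapped sites.

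Cells were read by the clusters that the authors named in each condition separately, joined into 7 classes. Cells named stellate (extracellular matrix-producing fibroblasts of the pancreas) carried Col1a1, Col1a2 or Col3a1 among the leading genes in the main i4F and caerulein clusters, and ductal cells carried Krt18, Krt7 or Epcam. The stellate class is held by different clusters in each condition. In WT mice 2739 and 631 of its 3645 cells were in clusters named quiescent, led by Smoc2 and by Pi16, and 275 in one named activated, which was led by the smooth muscle genes Acta2, Tagln and Myh11. In i4F mice 6917 were in a first activated cluster and 1437, mostly of i4F 3, in a second led by Clec3b, C3 and Gsn, and all 5715 caerulein cells were in 1 activated cluster. The 10 leading genes of that second i4F cluster also held Slpi, Dmkn and Upk3b, which are among the 10 leading genes of the caerulein cluster named mesothelium, as Slpi and Upk3b are of the WT one, and i4F mice had no cluster of that name. Of the 8 acinar marker genes chosen, none had a row in the tables, and the i4F cluster Acinar_2 was led by the squamous epithelial genes Ly6g6c, Sprr2b and Krt13, so that the shares of cells named acinar are given by cluster, and the gene tests on the joined class compare unlike clusters. The myeloid class joins the clusters named macrophages, of which i4F Macrophages_2 and caerulein Macrophages_3 were led by the neutrophil genes S100a9 and Retnlg. Caerulein mice had no cluster of NK and T cells, and their cluster named B lymphocytes was led by MHC class II genes, with Igkc and Ighm also among its 10 leading genes, and was left out of the B class. The i4F cluster named follicular B lymphocytes, led by Igkc, Iglc1 and Ighg2b, is in no class either. Nor are the clusters named smooth muscle in i4F (229 cells) and caerulein mice (168 cells), both led by Rgs5 and Myh11. The stellate class thus holds a cluster led by smooth muscle genes in WT mice only. Between 3 and 39 cell barcodes were shared by any pair of libraries.

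A cell was counted as having mitotic genes if it had UMIs of at least 2 of the 22 mitotic genes. Over all cells, 2.03% and 1.17% of WT cells met this, against 31.3%, 21.2% and 2.55% of i4F cells and 19.96% and 19.5% of caerulein cells. The means were 1.60% ± 0.611 (SD, n = 2), 18.3% ± 14.6 (SD, n = 3) and 19.7% ± 0.309 (SD, n = 2). i4F 3 stood apart from the other i4F mice, just above WT 1. A share over the listed genes was given no test, and a deeper cell has more chances to show 2 of the genes, so that shares are also given after thinning cells to 1000 UMIs. Cells with fewer UMIs were left out of the thinned shares, which therefore differ in the cells covered as well as in depth, and 60.3% (i4F 3) to 86.4% (caerulein 1) of the cells of a mouse were kept, but 17.8% and 22.8% of WT acinar and 9.33% to 54.3% of i4F B cells. The thinned shares over all cells were 0.922% ± 0.492 in WT, 10.9% ± 8.13 in i4F and 13.5% ± 2.09 in caerulein mice.

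Stellate cells held 2582 of the 3069 cells with mitotic genes in i4F 1, 1494 of 1739 in i4F 2, 57 of 194 in i4F 3, and 1843 of 3021 and 926 of 1374 in caerulein mice. In this class 1.05% of the cells of WT 1 (12 of 1138, exact 95% interval 0.546 to 1.83) and 0.279% of those of WT 2 (7 of 2507, 0.112 to 0.574) had mitotic genes. The shares were 58.8% (57.3 to 60.2) in i4F 1, 55.7% (53.8 to 57.6) in i4F 2 and 4.45% (3.39 to 5.73) in i4F 3. They were 50.2% (48.5 to 51.8) in caerulein 1 and 45.4% (43.2 to 47.6) in caerulein 2. All i4F and all caerulein mice lay above both WT mice, also within each library name series, and i4F 3 was far below the other treated mice. The intervals cover counting error only and not the spread between mice. Thinning kept this order relative to WT, with 0.281% and 0.0854% in WT, 29.7%, 28.0% and 2.16% in i4F, and 28.5% and 30.1% in caerulein mice. Median depth in the class was 4700 and 3605 UMIs in WT, 9918, 8942 and 2554.5 in i4F, and 7257 and 3475 in caerulein mice.

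The low share of i4F 3 went with the cluster its stellate cells belonged to. Of its 1280 stellate cells, 113 were in the first activated cluster, where 34.5% had mitotic genes, against 59.9% in i4F 1 and 57.7% in i4F 2. The other 1167 were in the second, where 1.54% had them, against 25.0% of 144 cells in i4F 1 and 15.9% of 126 cells in i4F 2. i4F 3 was thus the lowest i4F mouse within both clusters. Most of its stellate cells and of their total UMIs were in the second cluster, which shares leading genes with mesothelium. Of its UMIs of mitotic genes, however, 937 were in the first cluster and 292 in the second, and of replication genes 883 and 875. The part of the clusters in its low values was not tested.

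In ductal cells the caerulein mice stood apart. Mitotic genes were found in 1.20% (9 of 753, 0.548 to 2.26) and 1.45% (9 of 621, 0.665 to 2.73) of WT ductal cells and in 43.1% (144 of 334, 37.7 to 48.6) and 34.5% (82 of 238, 28.4 to 40.9) of caerulein ductal cells. In i4F mice the shares were 7.98% (19 of 238), 2.84% (6 of 211) and 0.380% (2 of 527). Caerulein mice were above all others, and i4F mice overlapped with WT mice. Thinned to 1000 UMIs, the shares were 0.149% and 0% in WT (0 of 572 cells allows up to 0.524%), 2.34%, 1.03% and 0% in i4F (0 of 487 allows up to 0.616%), and 25.6% and 24.3% in caerulein mice. Of the 27 i4F ductal cells with mitotic genes, 85.2% had UMIs of the 8 stellate markers and 88.9% of the 8 myeloid markers, against 28.9% and 35.2% of the other 949 i4F ductal cells. Such percentages can rise with depth, and i4F ductal cells with Mki67 were deeper. Their medians were 15091, 10636 and 21318 UMIs (9, 5 and 1 cells), against 4074, 2655.5 and 2665 without Mki67. The myeloid markers are given as percentages only, and neither percentage is given for caerulein mice. Summed over the cells, the stellate markers stood at 5355 CPM (counts scaled to the usual total of 1e6) in the mitotic and at 442 CPM in the other i4F ductal cells, and at 1098 and 1054 CPM in those of caerulein mice. Ductal markers had UMIs in 100.0% of the cells of both kinds in both treatments. The part of the stellate and myeloid transcripts in the i4F share was not tested.

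**Figure D1:**
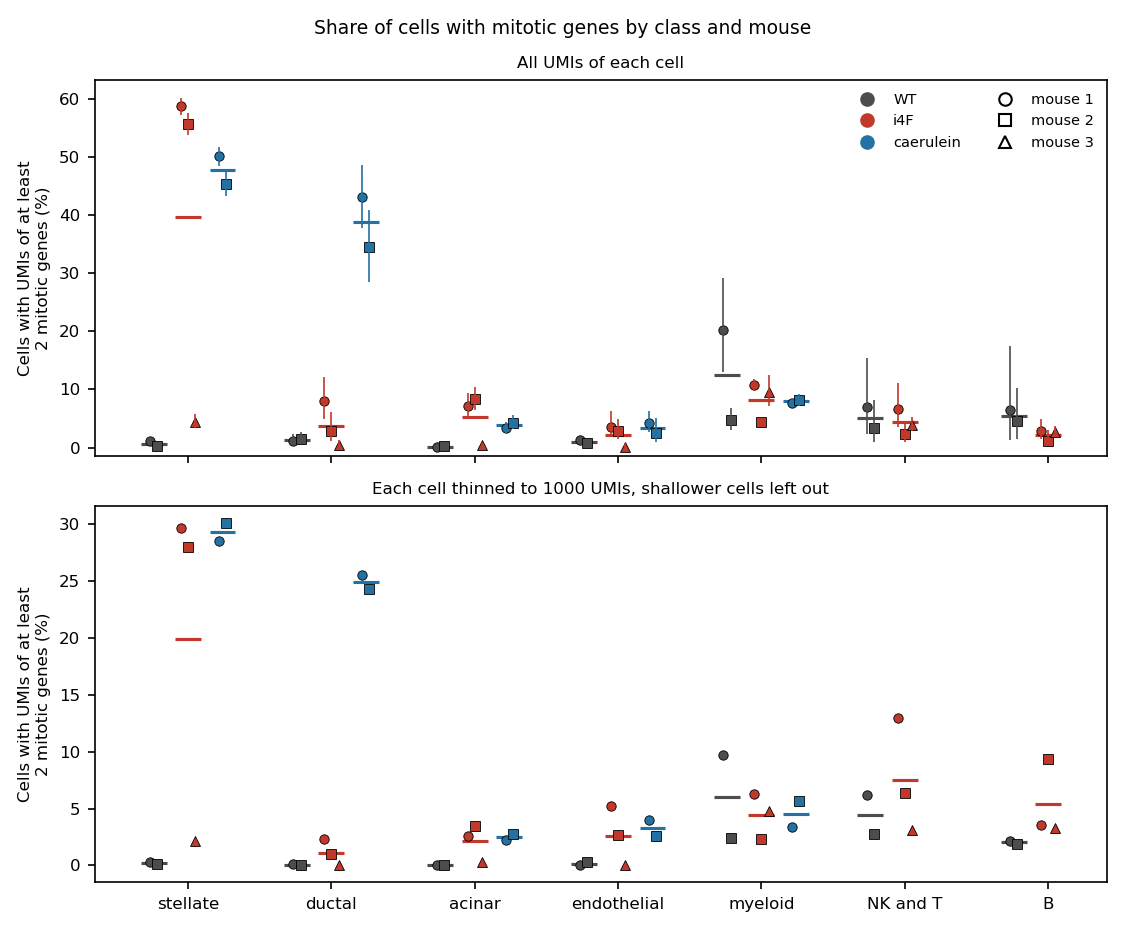
Share of cells with UMIs of at least 2 of the 22 mitotic genes (percent, linear axis) by cell class, 1 point per mouse with colour for the group, shape for the mouse number and a horizontal bar at the group mean; vertical lines in the upper panel are exact 95% binomial intervals, and the lower panel repeats the shares after thinning each cell to 1000 UMIs. Stellate cells of i4F 1, i4F 2 and both caerulein mice and ductal cells of caerulein mice lie far above all other points, with i4F 3 at 4.45% among stellate cells.

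In the other classes no mouse was above 20.2%. Of the cells named acinar in WT mice, 0.117% and 0.218% had mitotic genes, and in caerulein mice 3.37% and 4.30%. In i4F mice Acinar_2, which held nearly all such cells of i4F 1 and i4F 2, had 7.20%, 8.58% and 3.39%, and Acinar_1, which held 2071 of the 2130 such cells of i4F 3, had 0.338% there. Thinned to 1000 UMIs, the joined class had 0% and 0% in WT (0 of 152 and 0 of 209 cells allow up to 1.97% and 1.44%), 2.62%, 3.50% and 0.276% in i4F, and 2.19% and 2.76% in caerulein mice, with i4F 3 within the WT limits. WT and i4F 3 acinar cells were shallow, with medians of 431, 502 and 606 UMIs. Endothelial cells had 1.25% and 0.825% in WT, 3.54%, 2.91% and 0.151% in i4F, and 4.29% and 2.54% in caerulein mice. Both caerulein mice were above both WT mice, and i4F mice overlapped with them.

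Leukocytes of WT mice also had mitotic genes. In the myeloid class the shares were 20.2% and 4.67% in WT, 10.7%, 4.36% and 9.58% in i4F, and 7.74% and 8.18% in caerulein mice, and the groups overlapped. WT 1 rested on 104 cells, 59 of them in the MHC class II-led cluster Macrophages_2, which had 22.03% there and 19.8% in WT 2. The i4F cluster led by MHC class II genes, Macrophages_3, had 11.2%, 4.60% and 12.1%. The caerulein cluster led by such genes, named B lymphocytes and in no class, had 18.3% and 14.6%, and the myeloid class of caerulein mice holds no cluster led by them. Macrophages_1 had 17.8% of 45 cells in WT 1 and 1.20% of 418 cells in WT 2. The neutrophil-led clusters were at 0.279%, 1.15% and 6.67% in i4F mice (the last being 1 of 15 cells) and at 0.635% and 0% in caerulein mice (0 of 84 cells, which allows up to 3.57%), with medians of 286 to 932 UMIs per cell. NK and T cells had 6.94% and 3.31% in WT against 6.70%, 2.34% and 3.93% in i4F mice, which overlapped, as they did after thinning, at 6.15% and 2.73% in WT against 12.96%, 6.33% and 3.15% in i4F mice, of which 54, 79 and 698 cells were kept against 65 and 110 WT cells.

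In B cells the direction turned between counts of all cells and thinned cells. Mitotic genes were in 6.38% and 4.505% of WT and in 2.87%, 1.17% and 2.71% of i4F B cells, where the medians were 2886 and 2066 UMIs in WT against 627, 467 and 1039 in i4F mice. Thinned to 1000 UMIs, the order turned, with 2.17% and 1.90% in WT against 3.57%, 9.38% and 3.29% in i4F mice, which rested on 112, 32 and 700 i4F cells. The classes also differ in make-up, since the WT cluster was led by Igkc, Ighm and Jchain and the i4F one by Cd79a, Ly6d and Cd79b. The follicular i4F cluster, led by immunoglobulin genes as the WT one is, had mitotic genes in 25.0% of 24, 7.41% of 27 and 7.46% of 67 cells, at medians of 5543, 4747 and 6649 UMIs. Its summed level of mitotic genes was 595, 223 and 264 CPM, below the 899 and 662 CPM of WT B cells. No difference between the groups is read from these values.

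The 18 replication genes were also found in many cells without mitotic genes. At least 2 of them were found in 43.0% and 33.0% of WT ductal cells and in 19.0% and 18.9% of WT endothelial cells, in which mitotic genes were rare. Without Stmn1, which was at 151 and 196 CPM in WT ductal cells and at 187 and 191 in WT endothelial cells, the ductal shares were 28.7% and 19.0%. Thinned to 1000 UMIs as well, they were 0.894% and 0.874%, against 30.9% and 22.02% in caerulein ductal cells. In stellate cells the thinned shares without Stmn1 were 0.842% and 0.982% in WT, 18.4%, 22.4% and 3.20% in i4F, and 15.4% and 14.5% in caerulein mice, again with every treated mouse above WT. Of the stellate cells with mitotic genes, 71.1% to 90.2% in each treated mouse also had at least 2 replication genes other than Stmn1. Conversely 35.7% of the stellate cells with at least 2 replication genes other than Stmn1 in i4F 3, and 71.1% to 77.2% in the other treated mice, had mitotic genes.

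Mki67, which encodes the Ki-67 protein used as a proliferation marker, was found together with the other mitotic genes in treated mice. In stellate cells it had UMIs in 30.3%, 26.9% and 2.50% of i4F cells and in 30.1% and 22.6% of caerulein cells, against 0.879% and 0.279% of WT cells. Of these Mki67 cells, 98.3%, 98.5% and 90.6% in i4F and 97.5% and 97.4% in caerulein mice had a UMI of at least 1 other mitotic gene, with medians of 10 to 13 of the other 21 genes. Of the stellate cells without Mki67, 61.7%, 61.5% and 7.45% in i4F and 50.4% and 46.3% in caerulein mice had one too. In each treated mouse the Mki67 cells were deeper by their median, as in i4F 1 with 12542.5 against 9001 UMIs. WT mice had 10 and 7 Mki67 cells, of which 30.0% in WT 1 and none in WT 2 had another mitotic gene. These were too few to be set against the 7.80% and 4.88% of the WT cells without Mki67. In myeloid cells it held for 41.0% to 68.9% of Mki67 cells in the 7 mice, with medians of 0 to 3 other genes. By these medians the Mki67 cells of the myeloid class had UMIs of fewer other mitotic genes than those of the stellate class in treated mice, a difference that was not tested. The myeloid Mki67 cells had medians of 2649.5 to 9200 UMIs, and the stellate ones of treated mice 4778.5 to 12542.5.

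**Figure D2:**
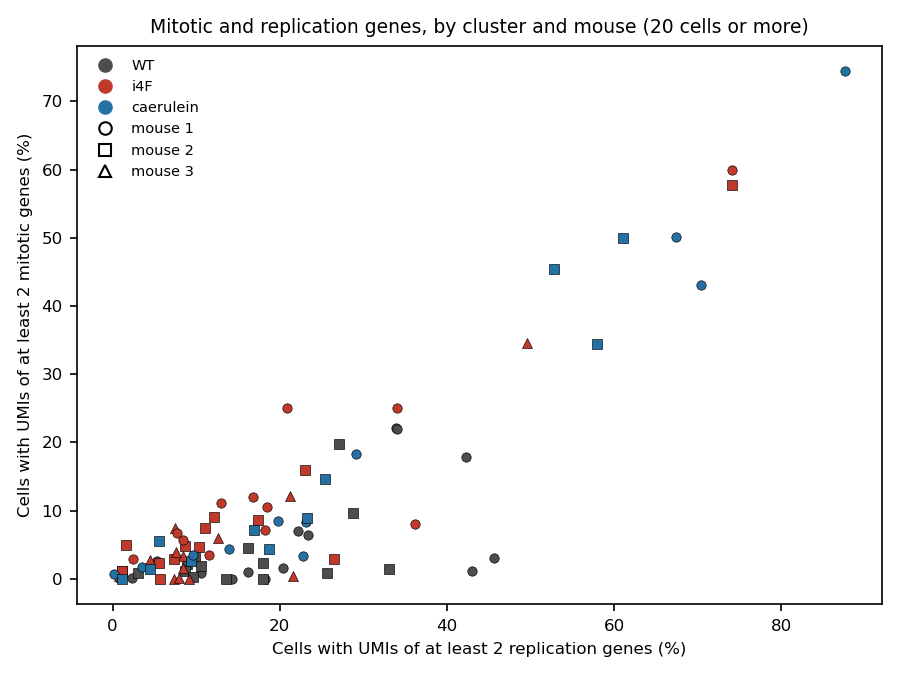
Share of cells with UMIs of at least 2 mitotic genes (percent, y axis) against the share with at least 2 replication genes (percent, x axis), 1 point for each cluster and mouse with 20 cells or more, with colour for the group and shape for the mouse number. WT ductal cells lie far to the right with few mitotic cells (43.0% and 1.20% in WT 1), and the clusters at the upper right are stellate cells of treated mice and mesothelial and ductal cells of caerulein mice.

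The genes were then tested one by one on UMIs summed per mouse and class (edgeR quasi-likelihood, all mice of a class in 1 fit, Benjamini-Hochberg adjustment over all genes tested, called at an adjusted p under 0.05). Both treatments were compared with the same 2 WT mice, so that their results are not independent. Each mouse is 1 animal with 1 library, and tests against 2 WT mice rest on few animals. The SE given with a log2 fold change is its absolute value divided by the square root of the F statistic of the test. It is an approximation and not a standard error fitted by edgeR. In such sums, fewer cells that express a gene and fewer transcripts per cell cannot be told apart. Some counts under DESeq2, under other settings or without a mouse stand without the share of all genes called in the same fit. Such counts show how a result moves and not whether it exceeds that share. Counts at an unadjusted p under 0.05 also have no share of all genes beside them. The shares given are of genes called at an adjusted p, so that counts at an unadjusted p are not compared with them.

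In stellate cells 35 of the 40 genes were higher in i4F than in WT mice, where 12.0% of all 14818 genes tested were called higher, and none was lower. All 22 mitotic genes and 13 of the 18 replication genes were called. The median log2 fold change of the 40 genes was 4.72, against 0.02 for all genes tested. Mitotic genes changed by 3.76 to 11.05 (median 6.49) and replication genes by 0.03 to 6.63 (median 2.94) on the log2 scale. Not called were Cdc6, E2f1, Mcm4, Pcna and Rrm1. The count fell to 0 without WT 1, without WT 2 or without i4F 2, and with the library name series as a term, while the median stayed at 4.54 to 4.75. It was 25 without i4F 1, 39 without i4F 3, 3 and 5 without caerulein 1 or 2, 3 when only WT and i4F mice were fitted and 15 without the deepest 5% of cells.

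Among the cyclins and kinases, Bub1, a kinase of the spindle checkpoint, had no UMI in either WT mouse and stood at 22.2, 19.3 and 2.72 CPM in i4F mice. The mean of the i4F mice was at least 71.1-fold higher than the level of the 3 UMIs that a count of 0 allows over the WT group, which is how bounds are given below (edgeR adjusted p = 0.0237). Plk1, the Polo-like kinase that drives mitotic entry, had 0 and 1 UMI in WT mice and 55.5, 52.7 and 5.69 CPM in i4F mice, a ratio of 749 with a counting interval of 134 to 29576 (edgeR adjusted p = 0.0187). Ratios with an interval are of UMIs pooled over the mice of a group, in which mice with more UMIs weigh more, and their intervals leave out the spread between mice. Both genes were picked among called genes whose groups did not overlap, so that every i4F mouse lies above WT by choice. Of the i4F mice, i4F 3 was the lowest.

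Ccna2, the cyclin of S phase and early mitosis, was at 0.562 and 0 CPM (3 UMIs in all) in WT and at 77.5, 64.6 and 9.90 CPM in i4F mice, a pooled ratio of 335 with an interval of 114 to 1623, against 180 for the ratio of the mean levels (edgeR adjusted p = 0.0198). Ccnb1, cyclin B1, was at 0.187 and 0.329 CPM in WT and at 63.4, 63.6 and 7.92 CPM in i4F mice. Its catalytic partner Cdk1 was at 1.69 and 0.767 CPM in WT and at 146, 135 and 33.4 CPM in i4F mice. Again i4F 3 was between WT and the other i4F mice.

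Ube2c, the ubiquitin-conjugating enzyme of the anaphase-promoting complex, was at 0.749 and 0.438 CPM in WT and at 231, 179 and 40.3 CPM in i4F mice, a log2 fold change of 8.18 ± 0.97 (SE, edgeR adjusted p = 0.0131). Cenpf, a kinetochore protein, was at 0.375 and 0.219 CPM in WT and at 63.1, 63.0 and 13.6 CPM in i4F mice, a change of 7.49 ± 0.93 (SE, edgeR adjusted p = 0.0147). Of the other chromosome proteins, Top2a (DNA topoisomerase II alpha) was at 2.06 and 0.548 CPM in WT and at 129, 111 and 25.0 CPM in i4F mice. Mki67 was at 3.00 and 0.767 CPM in WT and at 78.5, 76.0 and 17.6 CPM in i4F mice.

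The replication genes changed less by their median, 2.94 against 6.49 for the mitotic genes. Mcm5, a subunit of the replicative helicase, was at 5.99 and 3.83 CPM in WT and at 54.3, 60.8 and 16.6 CPM in i4F mice, a change of 3.35 ± 0.57 (SE, edgeR adjusted p = 0.0197). Stmn1 was at 22.3 and 9.53 CPM in WT and at 211, 210 and 98.2 CPM in i4F mice, a change of 3.64 ± 0.48 (SE, edgeR adjusted p = 0.0161). Pcna, which also acts in DNA repair, was at 22.5 and 18.5 CPM in WT and at 37.3, 44.1 and 22.3 CPM in i4F mice, where i4F 3 lay within the WT range (edgeR adjusted p = 0.0593). E2f1 was at 10.1 and 9.42 CPM in WT and at 9.63, 10.7 and 5.94 CPM in i4F mice, and the groups overlapped (edgeR adjusted p = 0.946).

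**Figure D3:**
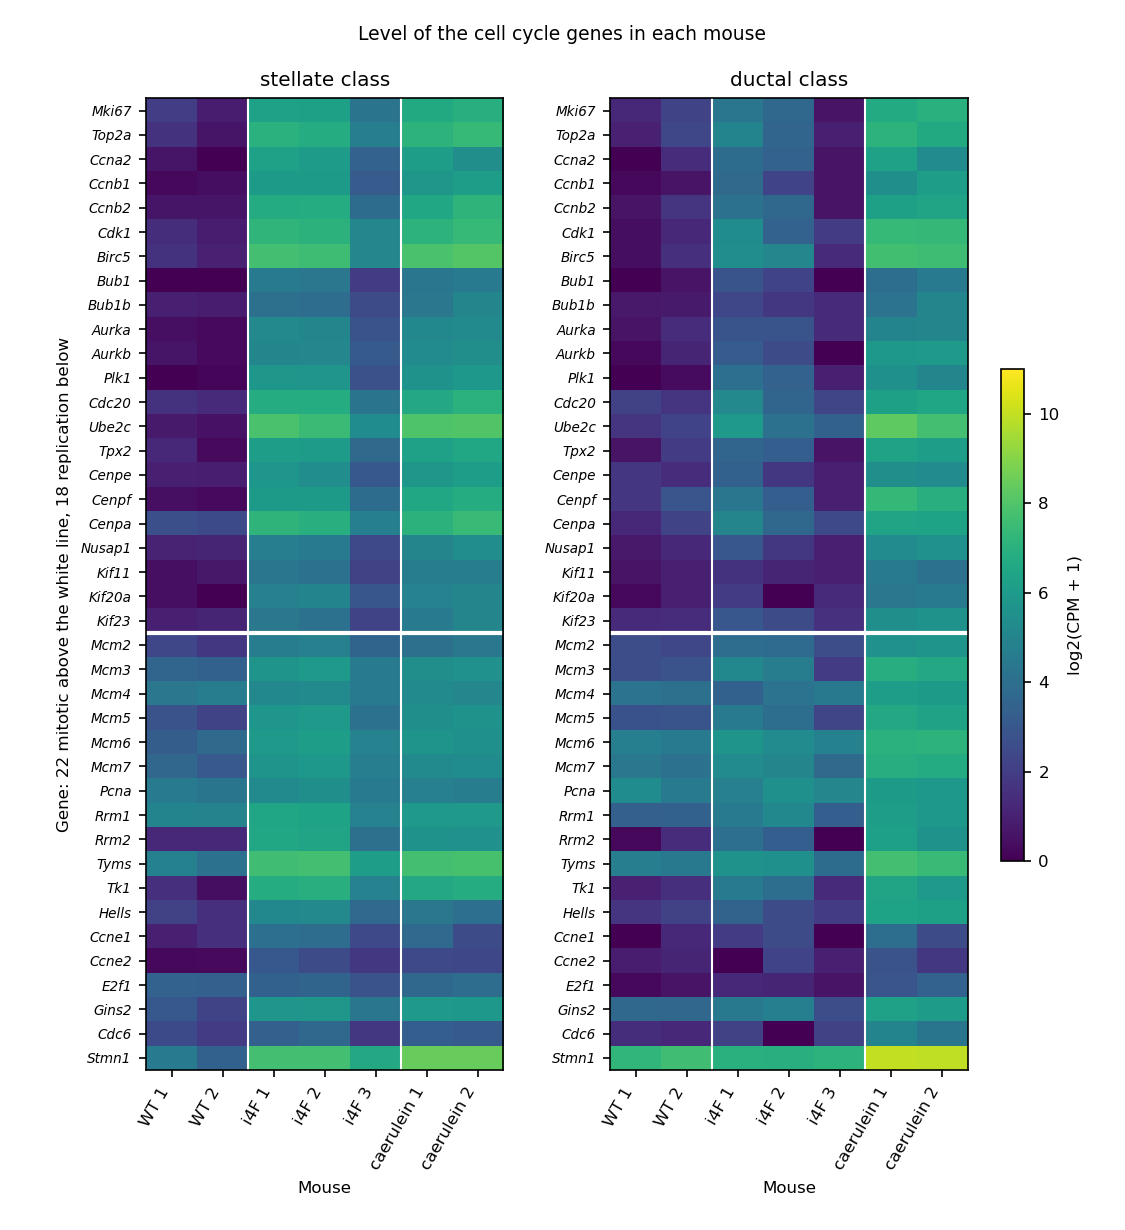
Level of each of the 40 genes as log2(CPM + 1) (colour scale) in the stellate class (left) and the ductal class (right), 1 column per mouse, with the 22 mitotic genes above the white line and the 18 replication genes below. Mitotic rows are dark in both WT mice and bright in treated stellate cells except i4F 3, whereas among ductal cells only the caerulein columns are bright throughout.

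Set beside i4F 1 and i4F 2, stellate cells of caerulein mice were close in Plk1, higher in Cenpf and overlapping in Ccna2. Of the 40 genes, 34 were higher than in WT mice, where 9.99% of all genes tested were called higher, and none was lower. All 22 mitotic genes (4.73 to 11.45, median 7.15, log2 fold change) and 12 of the 18 replication genes (0.50 to 6.90 and median 2.70 over all 18) were called, and the 6 not called were the 5 named above and Ccne1 (edgeR adjusted p = 0.0513). Bub1 was at 19.0 and 21.6 CPM, at least 97.9-fold above WT, and Plk1 at 48.8 and 56.5 CPM (ratio 729, interval 131 to 28808). Ube2c was at 254 and 260 CPM (8.96 ± 1.01 SE, edgeR adjusted p = 0.0101), Cenpf at 96.6 and 112 CPM (8.64 ± 0.97 SE) and Ccna2 at 68.9 and 42.7 CPM (ratio 305, interval 104 to 1482). The count was 0 without any 1 of the WT or caerulein mice and with the series term, and 21 without the deepest 5% of cells, with medians of 5.24 and 5.33 without WT 1 or WT 2.

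Between i4F and caerulein stellate cells none of the 40 genes was called by edgeR, where 0.459% of all genes tested were called in either direction; 2 had an unadjusted p under 0.05, and DESeq2 also called 0. The mitotic genes were at −1.15 to −0.15 (median −0.74) and the replication genes at −1.002 to 0.66 (median 0.05) on the log2 scale, i4F relative to caerulein. Among i4F mice the spread was wide, and without i4F 3 the count was 3, in a fit whose share of all genes called is not given here.

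In ductal cells 37 of the 39 genes tested were higher in caerulein than in WT mice, where 2.88% of all 11619 genes tested were called higher, and none was lower. Ccne2 did not pass the filter on low counts and was not tested. All 22 mitotic genes (4.44 to 8.19, median 5.69) and 15 of 17 replication genes (1.12 to 6.29 and median 3.56 over all 17) were called, and Ccne1 (edgeR adjusted p = 0.0963) and Pcna (edgeR adjusted p = 0.0841) were not. The median log2 fold change of the genes was 5.02, against −0.07 for all genes tested. The count was 0 without any 1 of the WT or caerulein mice and with the series term, and 13 without i4F 2, whereas without i4F 1 or i4F 3 it was 37 or 38.

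Plk1 had 0 and 1 UMI in WT ductal cells and stood at 44.7 and 32.0 CPM in caerulein mice (ratio 421, interval 74.3 to 16742, edgeR adjusted p = 0.0195). Cdk1 was at 0.337 and 1.43 CPM in WT and at 162 and 161 CPM in caerulein mice, a change of 7.71 ± 1.20 (SE, edgeR adjusted p = 0.0213). Birc5, the survivin subunit of the chromosomal passenger complex, was at 0.337 and 1.91 CPM in WT and at 202 and 191 CPM in caerulein mice (7.67 ± 1.32 SE, edgeR adjusted p = 0.0283). These genes were also picked among called genes whose groups did not overlap, so that both caerulein mice lie above WT by choice.

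Ccnb1 was at 0.169 and 0.478 CPM (3 UMIs in all) in WT and at 43.9 and 71.4 CPM in caerulein ductal cells, a ratio of 171 with an interval of 57.5 to 838 (edgeR adjusted p = 0.0195). Ube2c was at 2.19 and 3.58 CPM in WT and at 304 and 209 CPM in caerulein mice (6.65 ± 0.94 SE, edgeR adjusted p = 0.0162). Of the replication genes, Mcm5 went from 5.73 and 6.21 CPM to 99.6 and 80.0 CPM, and Stmn1 from 151 and 196 CPM to 1030 and 973 CPM. E2f1, the transcription factor of S phase entry that was not called in stellate cells, was at 0.169 and 0.478 CPM (3 UMIs in all) in WT and at 6.45 and 9.84 CPM in caerulein ductal cells (ratio 24.6, interval 7.46 to 127, edgeR adjusted p = 0.0293). Whether the change of E2f1 differed between the 2 classes was not tested.

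In i4F ductal cells none of the 39 genes was called against WT by edgeR, where 0.00861% of all genes tested were called in either direction. At an unadjusted p under 0.05 there were 22, and DESeq2 called 9, all higher. The share of all genes that DESeq2 called is not given here. The fitted changes were above 0 for 38 genes, with a median of 1.85, and i4F 3 stood apart. Cdk1 was at 39.8, 9.86 and 2.89 CPM and Ube2c at 61.7, 16.0 and 9.63 CPM in i4F mice, all above WT. Mki67 was at 19.2, 12.3 and 0.481 CPM and Top2a at 30.2, 11.1 and 0.963 CPM, with i4F 3 below both WT mice. Mki67 had UMIs in 1 of the 527 ductal cells of i4F 3 and in 5 and 3 WT ductal cells. The i4F 3 sum held 2077066 UMIs, so that its Top2a level also rests on few UMIs. Without i4F 3, 31 genes were called higher, in a fit in which 13.7% of all genes tested were called higher.

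The direct comparison of ductal cells called 5 of the 39 genes lower in i4F than in caerulein mice, where 0.353% of all genes tested were called lower, and none higher. They were Kif11 and Kif23, kinesins of the spindle, Hells, a chromatin remodeler, Stmn1 and Mcm4, another helicase subunit. Kif11 was at 2.06, 1.23 and 0.963 CPM in i4F and at 22.2 and 16.0 CPM in caerulein mice (−3.77 ± 0.55 SE, edgeR adjusted p = 0.0391). Hells was at 10.3, 4.93 and 2.89 CPM against 81.4 and 76.3 CPM (−3.72 ± 0.47 SE, edgeR adjusted p = 0.0254). Kif23 was at 6.86, 4.93 and 1.93 CPM against 43.9 and 49.2 CPM (−3.40 ± 0.46 SE, edgeR adjusted p = 0.0305). No i4F mouse reached a caerulein mouse in these genes, which the rule for naming genes requires.

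Stmn1 was at 124, 120 and 138 CPM in i4F and at 1030 and 973 CPM in caerulein ductal cells (−2.98 ± 0.24 SE, edgeR adjusted p = 0.00590), and Mcm4 at 9.60, 17.3 and 20.7 CPM against 70.9 and 62.7 CPM (−2.09 ± 0.31 SE, edgeR adjusted p = 0.0407). Stmn1 in i4F ductal cells lay below both WT values. The other 34 genes ranged from −3.93 to −0.82. The count was 28 with DESeq2, 0 without i4F 2 or without either caerulein mouse, 2 without either WT mouse, 15 without i4F 1 and 27 without i4F 3, and the 2 groups do not share a library name series. The shares of all genes called in these fits are not given, so that the counts are not compared with them.

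**Figure D4:**
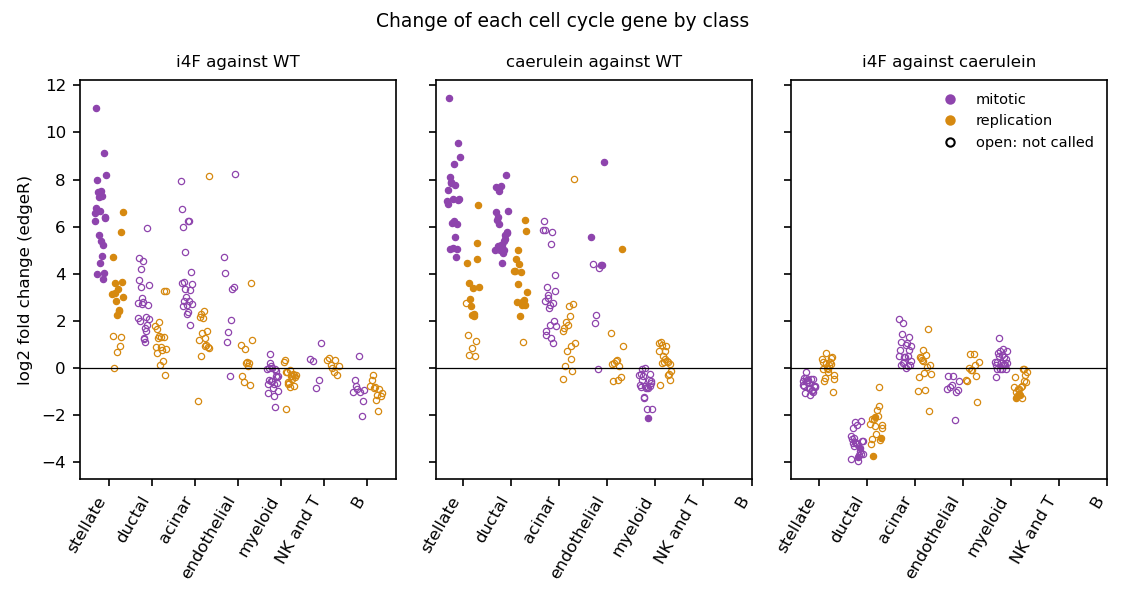
Fitted log2 fold change (edgeR, y axis) of each gene tested, by cell class and for each of the 3 comparisons, with 1 point per gene, mitotic in purple and replication in orange, filled where called at an adjusted p under 0.05; NK and T cells and B cells were compared between i4F and WT only. Filled points are nearly confined to stellate cells in both comparisons with WT and to ductal cells of caerulein mice, and the points above 9 rest on WT sums of 0 or 1 UMI.

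In the other classes few genes were called. Percentages in brackets below are of all genes called by edgeR at an adjusted p, and not of those at an unadjusted p or called by DESeq2. Among cells named acinar, 0 of 36 genes tested were called in i4F against WT (0.0808% of all genes tested, either direction; 13 genes at an unadjusted p under 0.05; 4 by DESeq2). In caerulein against WT it was 0 of 36 (0.0359%; 8 at an unadjusted p under 0.05; 1 by DESeq2), and in i4F against caerulein 0 of 36 (0.126%; 3 and 1). Without i4F 3, and so nearly without Acinar_1, 27 genes were called higher in i4F than in WT mice, in a fit in which 17.3% of all genes tested were called higher, and 14 were called higher in caerulein than in WT mice, where 8.36% of all genes tested were. For i4F against caerulein the count without i4F 3 is not given here, so that its 0 of 36 holds for the fit of all mice. Cdk1 was at 1.30 and 1.22 CPM in WT, at 24.9, 19.7 and 2.77 CPM in i4F and at 12.7 and 21.1 CPM in caerulein mice, with every treated mouse above WT. The sums held 767407 and 817448 UMIs in WT and 2887026 in i4F 3. The Cdk1 levels of these mice, and so their order, rest on few UMIs. Stmn1 was at 44.3 and 31.8 CPM in WT, at 119, 111 and 27.0 CPM in i4F and at 334 and 426 CPM in caerulein mice, where i4F 3 lay below WT.

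In endothelial cells 20 genes passed the filter, and 4 were higher in caerulein than in WT mice, where 3.54% of all 8153 genes tested were called higher. Ube2c had no UMI in WT and was at 57.9 and 25.4 CPM in caerulein mice, at least 63.3-fold higher (edgeR adjusted p = 0.0335). Birc5 was at 0.477 and 0.812 CPM (3 UMIs) in WT and at 38.6 and 25.4 CPM in caerulein mice (ratio 54.4, interval 17.7 to 272, edgeR adjusted p = 0.0416). Tk1, a thymidine kinase of the salvage pathway, was at 0.477 and 0.812 CPM (3 UMIs) against 15.9 and 38.1 CPM (ratio 31.2, interval 9.75 to 160, edgeR adjusted p = 0.0301), and Top2a at 1.43 and 2.03 CPM against 27.7 and 50.8 CPM (4.38 ± 0.96 SE, edgeR adjusted p = 0.0403). Both caerulein mice were above both WT mice in these 4 genes, which the rule for naming genes requires. The endothelial cells with mitotic genes of caerulein mice carried the 8 stellate markers at 5483 CPM, against 893 CPM in the other endothelial cells, and the 8 endothelial markers at 4453 against 9933 CPM. The part of this in the result was not tested. The count was 7 with DESeq2, 0 without any 1 of the WT or caerulein mice and with the series term, 2 without i4F 1 and 11 without i4F 3. Ube2c also stood at 47.6, 55.7 and 1.30 CPM in i4F mice, with i4F 3 near WT. Mki67 stood at 0.954 and 1.22 CPM in WT, at 18.2, 20.9 and 0 CPM in i4F and at 23.5 and 22.2 CPM in caerulein mice, with i4F 3 again at the level of WT or below. Pcna overlapped, at 63.0 and 45.1 CPM in WT, 54.4, 69.6 and 39.03 CPM in i4F, and 26.0 and 50.8 CPM in caerulein mice. In i4F against WT endothelial cells, 0 of 20 were called (0.810% of all genes tested; 8 at an unadjusted p under 0.05; 6 by DESeq2), and in i4F against caerulein 0 of 20 (0.601%; 0 and 0). Without i4F 3, 11 of 24 genes tested were called higher and 1 lower in i4F than in WT mice, in a fit in which 7.43% of all genes tested were called higher and 6.86% lower. For i4F against caerulein the endothelial count without i4F 3 is not given here.

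In myeloid cells Mki67 was at 140 and 44.1 CPM in WT, at 78.2, 48.8 and 67.7 CPM in i4F and at 55.0 and 65.4 CPM in caerulein mice, so that the WT mice held both the highest and the lowest level. Top2a and Cdk1 were also highest in WT 1, at 120 and 49.2 CPM. All 40 genes were tested and 1 was lower in caerulein than in WT mice, where 3.42% of all 12077 genes tested were called lower. This was the spindle kinesin Kif23, at 32.3 and 25.1 CPM in WT and at 5.79 and 6.97 CPM in caerulein mice (−2.10 ± 0.29 SE, edgeR adjusted p = 0.0328). It stood at 9.17, 6.77 and 9.67 CPM in i4F mice, also below both WT mice. The call was lost without any 1 of the WT or caerulein mice or without i4F 1, and DESeq2 called 3 genes lower. As 1 of 40, it is no larger a share than the 3.42%, and the class of WT mice includes an MHC class II-led cluster whereas that of caerulein mice does not. In i4F against WT, 0 of 40 were called (0.00828% of all genes tested; 4 at an unadjusted p under 0.05; 1 by DESeq2), and without i4F 3, 2 were lower, where 6.38% of all genes tested were called lower. In i4F against caerulein 2 genes were lower, where 0.489% of all genes tested were called lower, namely E2f1, at 12.4, 9.58 and 9.03 CPM against 23.0 and 29.6 CPM (−1.25 ± 0.24 SE, edgeR adjusted p = 0.0494), and Mcm4, at 14.6, 12.0 and 14.2 CPM against 27.8 and 34.9 CPM (−1.15 ± 0.20 SE, edgeR adjusted p = 0.0493). Both calls were lost without any 1 mouse other than i4F 3, without which 6 genes were lower and 1 higher, and DESeq2 called 4 lower and 1 higher. How many of all genes were called in these 2 fits is not given, so that these counts are not read further.

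In NK and T cells 13 genes passed the filter and 0 were called in i4F against WT (1.51% of all genes tested, either direction; 0 at an unadjusted p under 0.05; 0 by DESeq2). Mki67 was at 104 and 47.1 CPM in WT and at 87.6, 19.8 and 28.0 CPM in i4F mice, which overlapped, as did Pcna at 49.3 and 47.1 CPM in WT against 56.7, 76.0 and 44.9 CPM in i4F mice. In B cells 0 of 20 were called (0.447% of all genes tested, either direction; 4 at an unadjusted p under 0.05; 1 by DESeq2). Mki67 was at 139 and 66.7 CPM in WT and at 25.6, 19.8 and 33.8 CPM in i4F B cells, below both WT mice, on sums of at most 61 UMIs.

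Of a second list of 74 cell cycle genes outside the 40 (further spindle, replication and checkpoint genes, D cyclins, inhibitors and retinoblastoma proteins), 51 were higher and 3 lower in i4F than in WT stellate cells, and 50 were higher and 4 lower in caerulein stellate cells. Of all genes tested there, 12.0% and 9.99% were called higher and 8.58% and 7.10% lower, so that the 3 and 4 lower genes are no larger a share than that of all genes. The largest changes were those of Foxm1, a transcription factor of mitotic genes, with 0 UMIs in WT and thus at least 53.02-fold higher in i4F and at least 67.02-fold higher in caerulein mice, and of Hmmr and Cdca3, which act in mitosis. Hmmr had 2 WT UMIs (ratio 443, interval 122.6 to 3660, in i4F and ratio 664, interval 184 to 5489, in caerulein mice) and Cdca3 had 3 (443, 152 to 2151, and 468, 160 to 2273).

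Among the lower genes, Ccnd2, a D cyclin, was at 259 CPM ± 49.7 (SD, n = 2) in WT, at 107 ± 27.5 (SD, n = 3) in i4F and at 77.3 ± 3.92 (SD, n = 2) in caerulein stellate cells (log2 fold changes −1.11 ± 0.25 and −1.58 ± 0.28 SE, edgeR adjusted p = 0.0299 and 0.0197). Rbl2, the retinoblastoma relative p130 that marks cells out of the cycle, was at 23.2 ± 4.86 CPM in WT, 10.502 ± 1.69 in i4F and 10.4 ± 2.29 in caerulein mice (edgeR adjusted p = 0.0321 and 0.0405). Cdkn1b, the inhibitor p27, was lower in i4F mice, at 29.1 ± 6.81 CPM against 62.7 ± 2.01 (edgeR adjusted p = 0.0479). Ccnd1, cyclin D1, and Rb1 were lower in caerulein mice, Ccnd1 at 19.8 ± 1.59 CPM against 95.4 ± 16.6 and Rb1 at 2.26 ± 0.00475 against 7.06 ± 1.93 (edgeR adjusted p = 0.0101 and 0.0331). In stellate cells Ccnd1 was also the 1 gene of the 74 called between the treatments, where 0.459% of all genes tested were called in either direction. It stood at 57.1 ± 10.4 CPM in i4F mice (1.53 ± 0.22 SE above caerulein, edgeR adjusted p = 0.0490, just under the threshold).

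In ductal cells 44 of the 69 genes of this list that were tested were higher in caerulein than in WT mice, where 2.88% of all genes tested were called higher, and none was lower. Espl1 (separase) had no UMI in WT and was at least 20.6-fold higher, Hmmr had 4 WT UMIs (ratio 120, interval 45.9 to 445) and Ndc80, a kinetochore protein, had 3 (ratio 106, interval 35.4 to 525). Against caerulein, 10 of the 69 genes were lower in i4F ductal cells, where 0.353% of all genes tested were called lower, led by Ect2 (1.01 ± 1.03 against 32.6 ± 4.42 CPM), Ndc80 (1.74 ± 0.443 against 31.7 ± 0.384 CPM) and Uhrf1 (5.69 ± 3.70 against 64.3 ± 3.08 CPM). In endothelial cells of caerulein mice Hmmr (0 WT UMIs, at least 23.03-fold) and Spc24 (ratio 18.1, interval 7.57 to 52.7) were higher, 2 of the 37 genes tested, where 3.54% of all genes tested were called higher. In myeloid cells Ccnd2 (6.52 ± 3.20 against 96.3 ± 59.4 CPM) and Myc (5.33 ± 0.144 against 23.5 ± 1.56 CPM) were lower. These are 2 of 71 genes tested, where 3.42% of all genes were called lower, in a class that holds an MHC class II-led cluster in WT but not in caerulein mice. In the remaining classes and comparisons edgeR called none of the list, with 1 to 22 at an unadjusted p under 0.05, and DESeq2 called 0 to 6 of it.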

How the data were processed

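Single cells of 7 mouse pancreata (10x Genomics 3′ v3) were aligned by the authors with Cell Ranger (version not given in the sources used here) to mm10, and cells with few genes or a high mitochondrial share were removed by them. The deposited values are whole-number UMI counts, and the cell metadata deposited with them give the percentage of mitochondrial UMIs as the authors computed it. The methods state a SoupX correction for ambient RNA, and whether the counts precede it is not stated. Genes absent from 1 of the tables were taken as 0. Clusters are those of the authors, joined into 7 classes. Doublets were not called. The members, lists and classes were chosen with earlier results of these data known.

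UMIs were summed per mouse and class (at least 20 cells) and tested with edgeR 4.0.16 in R 4.3.3 (TMM, filterByExpr, quasi-likelihood, two-sided, adjusted p threshold 0.05), with DESeq2 1.42.0 as an alternative. The SE of a log2 fold change was computed from the F statistic of its test, as stated above. Shares carry exact Clopper-Pearson 95% intervals (scipy 1.17.1). Replicates are separate mice. Named were, per class and comparison, up to 5 called members with the largest change whose groups did not overlap, levels of Mki67, Top2a, Cdk1, Ccnb1, Mcm5, Pcna and Stmn1, and up to 3 other cell cycle genes called; any further gene was named after its values were seen. The test script was tested on simulated counts. Other filters, scalings, blocks, thinning and left-out mice were tried as alternatives.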

Additional observations from a re-analysis of the deposited data

Results flagged for a closer look

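The share of B cells with mitotic genes was lower in every i4F mouse than in both WT mice, by a mean of −3.19 percentage points, whereas the stellate share was higher in every i4F mouse, by a mean of 38.98 points. For cells named acinar, which were also higher in every i4F mouse, the mean difference was 5.10 points against the −3.19 of B cells. In i4F 1 and i4F 2 the acinar value comes mostly from Acinar_2, led by Ly6g6c, Sprr2b and Krt13, and Acinar_1 had 0.338% in i4F 3. After thinning the acinar difference was 2.13 points, with i4F 3, at 0.276%, within what 0 of 152 and 0 of 209 WT cells allow. These opposite directions were not tested, and the B cell direction turned after thinning to 1000 UMIs, which kept only cells of that depth. The i4F B class leaves out the follicular cluster, where 25.0%, 7.41% and 7.46% of the cells had mitotic genes, in cells deeper than those of WT mice and with a lower summed level of these genes (595, 223 and 264 against 899 and 662 CPM).

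The clusters named mesothelium (the lining of the pancreas surface), found in WT and caerulein mice, were in none of the 7 classes. i4F mice had no cluster of that name, and Slpi, Dmkn and Upk3b, leading genes of the caerulein one, were among the 10 leading genes of the second i4F stellate cluster. In caerulein mice 74.5% of 243 and 50% of 36 cells of this name had UMIs of at least 2 mitotic genes, above the 22% of 100 and 9.57% of 94 cells in WT mice. Thinned to 1000 UMIs, the shares were 48.7% and 42.4% in caerulein mice and 32.7% of 49 and 8.45% of 71 cells in WT mice. The summed level of the mitotic genes did not follow this order, at 3138 and 2641 CPM in caerulein mice and at 4242 and 1180 CPM in WT mice. Replication genes were in 87.7% and 61.1% of them in caerulein mice and in 34.0% and 28.7% in WT mice. Median depth was 7577 and 3666.5 UMIs in caerulein and 978 and 4433 in WT mice, and among the 100 leading genes of the WT cluster 14 were members of the list.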

How the results depend on the processing

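Counts of called genes summed over classes were 35 for i4F against WT, 76 for caerulein against WT and 7 for i4F against caerulein. For i4F against WT and i4F against caerulein they became 58 and 34 with DESeq2, 90 and 52 without the filter on low counts, 3 and 4 with only the groups compared, and 15 and 12 without the deepest 5% of cells. With the library name series as a term all 3 counts were 0. Replicate numbers do not mark pairs (correlations of same-numbered mice −0.359 to 0.126), and a replicate block gave 101 and 20 calls for these comparisons; for caerulein against WT, pairing crossed numbers, chosen after seeing the data, gave 105. Leaving out 1 mouse gave 0 to 111, 0 to 104 and 0 to 47 calls. The share of all genes called also moves between fits, so that these counts are not results about the listed genes alone.

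Among differences in the share of cells with mitotic genes (percentage points), i4F minus WT moved from 5.10 to 9.45 in acinar cells with at least 500 genes and to 2.13 thinned, 2.60 without the deepest and 2.89 for Mki67 or Top2a, and from 1.16 to 2.50 in endothelial cells when thinned. In NK and T cells it turned to 3.04 after thinning and 2.76 with at least 500 genes, and in B cells to 3.37 and 0.843, with −0.388 without the deepest cells. Caerulein minus WT became 40.8 (at least 3 mitotic genes), 32.9 (Mki67 or Top2a), 29.1 (thinned) and 42.7 (without the deepest) in stellate cells and 24.9 (thinned) and 28.4 (without the deepest) in ductal cells. In acinar cells it was 2.83, 2.48, 5.41 and 2.48 with at least 3 genes, thinned, with at least 500 genes and without the deepest, and in endothelial cells 3.80 for Mki67 or Top2a. Over all cells it was 15.3, 15.4, 12.6, 20.7 and 16.0 for at least 3 genes, Mki67 or Top2a, thinned, at least 500 genes and without the deepest. The cause of these moves was not tested.

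Without 1 mouse, i4F minus WT ran from −12.0 to 3.56 in myeloid cells (above 0 without WT 1) and from −2.62 to 1.02 in NK and T cells (above 0, at 1.02 and 0.189, without WT 1 or i4F 2), and caerulein minus WT from −12.2 to 3.29 in myeloid cells (above 0 without WT 1). The log2 change of Pcna in i4F ductal cells ran from −0.0044 without WT 2 to 0.72 without WT 1. Leaving out TMM moved the median log2 change of all genes by up to 0.69, in cells named acinar. Of the 1111 log2 changes of named genes under alternatives, 717 kept direction and side of the threshold, 368 lost and 25 gained a call, and 1 reversed. With 2 or 3 mice a group, single mice decided most counts. Depth limits the shares of acinar, endothelial, B and i4F NK and T cells, many of which held under 1000 UMIs.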
